A study of Drosophila melanogaster with 30 samples.

Results

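The 6 genes described here encode subunits of the heterotrimeric G proteins that act outside the visual cascade. They are the alpha subunits Galphao, Galphas and Galphai, the beta subunits Gbeta13F and Gbeta5, and the gamma subunit Ggamma1. They were chosen by gene name from the 17562 genes of the count table, when their input CPM (counts scaled to the size of the library) and their log2 IP/input were already known. The levels of these readouts are therefore given as a description with no test, and the tests between groups are not independent support for the choice. All 6 genes passed the filter on low counts in each of the 12 comparisons, so 6 of 6 were tested throughout. Galphaf and cta, which also encode alpha subunits outside vision, do not belong to the 6 and are given with the other subunits.

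A heterotrimeric G protein links a receptor in the plasma membrane to enzymes and channels inside the cell. When the receptor is activated, the alpha subunit exchanges GDP for GTP and separates from the beta-gamma pair, and both parts then act on effectors until GTP is hydrolysed. In insects as in mammals, the s class of alpha subunits stimulates adenylyl cyclase and so raises cAMP, while the i and o class lowers it or signals through beta-gamma. In the fly brain these proteins carry the signals of neuromodulators, and Galphai and Gbeta13F also serve in the asymmetric division of neuroblasts.

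The libraries were made from fragmented polyA+ RNA of heads of male flies collected 1 to 2 days after eclosion, with 200 heads per replicate. The samples fall into 5 groups: daGal4 > dTrmt10A RNAi (Vienna 100720) in basal conditions, daGal4 > UAS-dTrmt10A after heat shock (HS) and in basal conditions, and daGal4 > KK control (Vienna 60100) after HS and in basal conditions. HS was 30 min at 38.5 °C with 20 flies per vial, and heads were taken at once. Each group had 3 replicates, and each replicate gave an m6A-IP library, in which fragments carrying N6-methyladenosine were pulled down with an antibody, and an input library from 10% of the same fragmented RNA, 30 libraries in all. All 5 groups carry the daGal4 driver, which uses the promoter of daughterless and is active in most cell types, so the transgenes were not limited to neurons or to any other cell of the head.

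In the Ensembl annotation of the dm6 assembly, 3 of the 6 genes lie on arm 2R: Galphao (FBgn0001122, 10437985 to 10465701, plus strand, 10 transcripts), Galphas (FBgn0001123, 23942538 to 23946936, plus strand, 5 transcripts) and Ggamma1 (FBgn0004921, 8901404 to 8904791, plus strand, 3 transcripts). Galphai (FBgn0001104) lies on 3L, 6972750 to 6980044, minus strand, with 1 transcript. The beta subunits are on X: Gbeta13F (FBgn0001105) at 15860115 to 15866175 on the plus strand with 6 transcripts, and Gbeta5 (FBgn0030011) at 8150731 to 8152275 on the minus strand with 1 transcript in 1 exon. The exons of none of the 6 genes share a base with the exons of another annotated gene, on either strand. The genes differ in how much untranslated sequence they carry: 3′UTR bases came to 4001 in Galphao, 3379 in Gbeta13F and 2231 in Ggamma1, against 593 in Galphai, 336 in Gbeta5 and 189 in Galphas.

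Total counts ranged from 20110909 to 51006574 in input and from 16255688 to 30456825 in IP, so that 3 counts, taken as the floor, were at most 0.149 CPM in input and 0.185 CPM in IP. The gene that was manipulated behaved as labelled. CG14618, which encodes dTrmt10A, was lower in RNAi than in control input by a log2 change of -1.06 (SE 0.12, adjusted p = 0.00340) and higher in UAS than in control input by 4.35 (SE 0.12, adjusted p = 2.68e-07, edgeR quasi-likelihood test with Benjamini-Hochberg adjustment, n = 3 each). Markers of neurons, glia, photoreceptors, head fat body and muscle were all detected in every input library, with 0 of 18 at a count of 0. Because these are whole heads, fewer cells of a type and less RNA per cell cannot be told apart in any of the results.

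The sequence around m6A in flies is often rich in adenosine, with AAACA as a frequent word, while GGACT is the classical word of mammalian m6A. Both words were searched on the transcript strand only, counting matches of AAACA that overlap each other; the words cannot share a base between them. The 30-base stretch of exon with the most matches is shown for 3 members, Gbeta13F, Galphai and Gbeta5. Where several stretches tied, the first from the 5′ end is given. The 3 members are examples and do not set high against low IP/input. Ggamma1, which is not shown, was more depleted from the IP than Gbeta5. It had 4 matches of AAACA in its 3′UTR and 1 in its 5′UTR. Capitals mark the words, and the sequences are those of RefSeq release 6 (dm6), 5′ to 3′ on the strand of the gene. They are the 5′UTR stretch chr3L:6980015-6980044 of Galphai (minus strand), the 3′UTR stretch chrX:15862830-15862859 of Gbeta13F (plus strand) and the coding stretch chrX:8151749-8151778 of Gbeta5 (minus strand).
Galphai: tcggcAAACAgtcacaccaatccgacgcga
Gbeta13F: agAAACAgAAACAAAACAAAACAaaAAACA
Gbeta5: gtcgggcaattttgtggcctgcggcGGACT

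The Gbeta13F stretch held 5 matches, and 0.000817% of all 30-base windows in the exons of the tested coding genes held as many or more. The other stretches held 1 match each, and 7.33% of windows held at least that. Each stretch was picked as the best of its gene, while these shares are over single windows. They do not say how many genes hold such a stretch, since the best windows of other genes were not compared. Over its whole 3′UTR, Gbeta13F had 34 matches of AAACA, or 10.1 per kb, against a median of 2.91 per kb over 7730 genes, of which 66.4% had a match. The short 3′UTR of Galphas was as dense, with 2 matches or 10.6 per kb, and those of Galphao and Galphai had 24 and 2 matches (5.999 and 3.37 per kb). In coding sequence, Galphao and Galphas had 5 matches of AAACA each (4.23 and 4.32 per kb), Galphai had 3 (2.81 per kb) and Gbeta13F had 1 (0.978 per kb), against a median of 0.766 per kb over 9509 genes, of which 66.1% had a match. In the 5′UTR, AAACA came to 4.93 per kb in Galphai, 4.06 in Galphao, 3.33 in Gbeta13F, 3.04 in Ggamma1 and 1.31 in Galphas. The median there was 2.87 per kb over 6832 genes, of which 64.5% had a match. Gbeta5 had 0 matches of AAACA in its 5′UTR, coding sequence or 3′UTR. The coding sequences of Gbeta13F and Gbeta5 had 3 matches of GGACT each (2.93 and 2.79 per kb), those of Galphao and Galphas 2 each, that of Ggamma1 1 and that of Galphai 0, against a median of 1.005 per kb over 9509 genes, of which 75.7% had a match. Ggamma1, whose coding sequence is 213 bases long, had 0 matches of AAACA there and 4 in its 3′UTR (1.79 per kb). A match is a word in the sequence and not a measured site: the files give a count per gene, so where on a transcript the antibody bound was not measured.

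Ggamma1 was the most abundant of the 6 transcripts in heads on a per-length basis. In basal control heads its input level per kb of exon was 294 ± 6.83 CPM per kb (SD, n = 3), against 56.5 ± 1.52 for Galphas, 51.2 ± 3.27 for Gbeta5, 41.1 ± 2.31 for Galphao, 34.5 ± 0.722 for Gbeta13F and 25.2 ± 0.900 for Galphai. The summed length of all annotated exons was used, so a gene whose long 3′UTR forms are little used in heads is set too low by this scale. On the plain CPM scale all 6 were well above the floor: among 10811 genes, the input level of the 6 in basal control heads stood between percentile 71.5 (Galphai) and percentile 99.0 (Ggamma1).

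**Figure D1:**
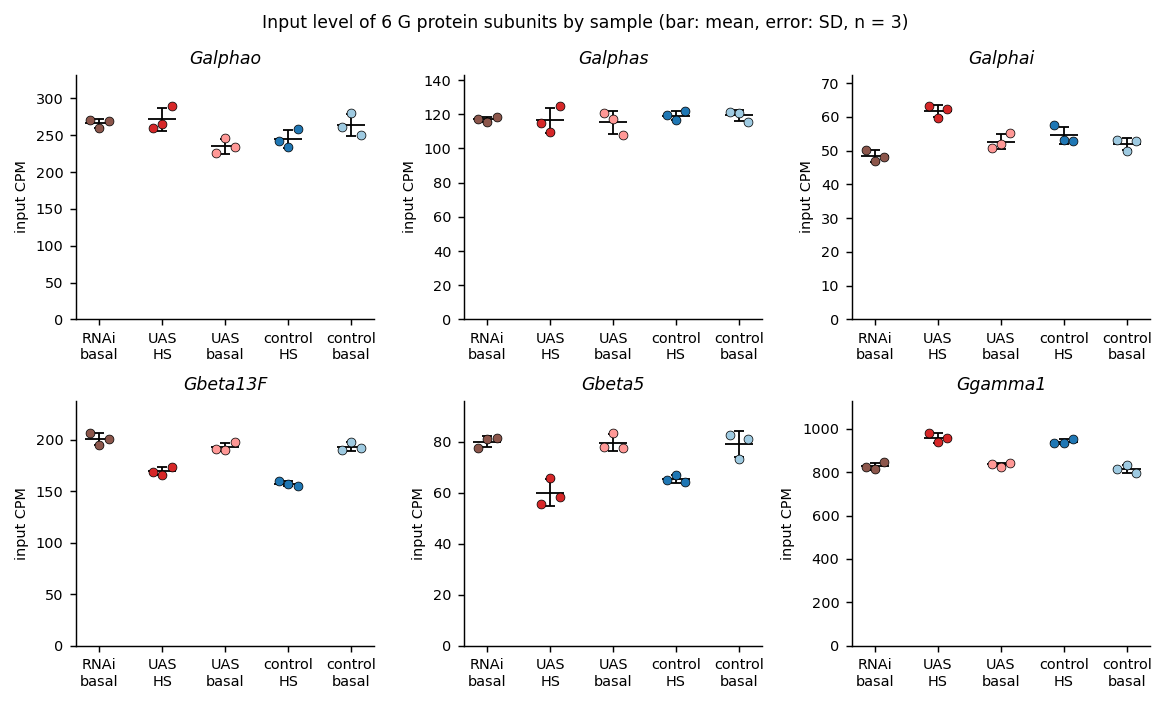
Input level in CPM (vertical axes from 0) of each of the 6 subunits in every sample, by group: dTrmt10A RNAi basal, UAS-dTrmt10A HS and basal, control HS and basal. Points are the 3 replicates, long bars the mean and whiskers the SD. The HS points of Gbeta13F and Gbeta5 lie under the basal points of the same genotype, and those of Ggamma1 above them.

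The 6 subunits ranged from enriched to depleted in the IP, with Galphas in between. The log2 IP/input is the difference of log2 CPM between IP and input of the same RNA, on a scale where the median of all genes lay between -0.09 and -0.05 in the 5 groups. In basal control heads the log2 IP/input was 1.65 ± 0.27 for Gbeta13F (percentile 97.7 of 10811 genes), 1.61 ± 0.15 for Galphai (97.5), 0.82 ± 0.18 for Galphao (84.8) and 0.28 ± 0.07 for Galphas (65.2; SD, n = 3). Gbeta5, the beta subunit that pairs with RGS proteins of the R7 class in place of a gamma subunit, was below the median at -0.46 ± 0.10 (29.3), as was Ggamma1 at -0.72 ± 0.04 (16.2). Thus Gbeta13F and Ggamma1, which form a beta-gamma pair, stood at opposite ends, with 3.13 and 0.607 times as much IP as input. In every one of the 15 RNA samples the log2 IP/input was above 0 for Gbeta13F, Galphai and Galphao and below 0 for Gbeta5 and Ggamma1. Galphas was above 0 in all samples but UAS basal replicate 1 (-0.04).

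**Figure D2:**
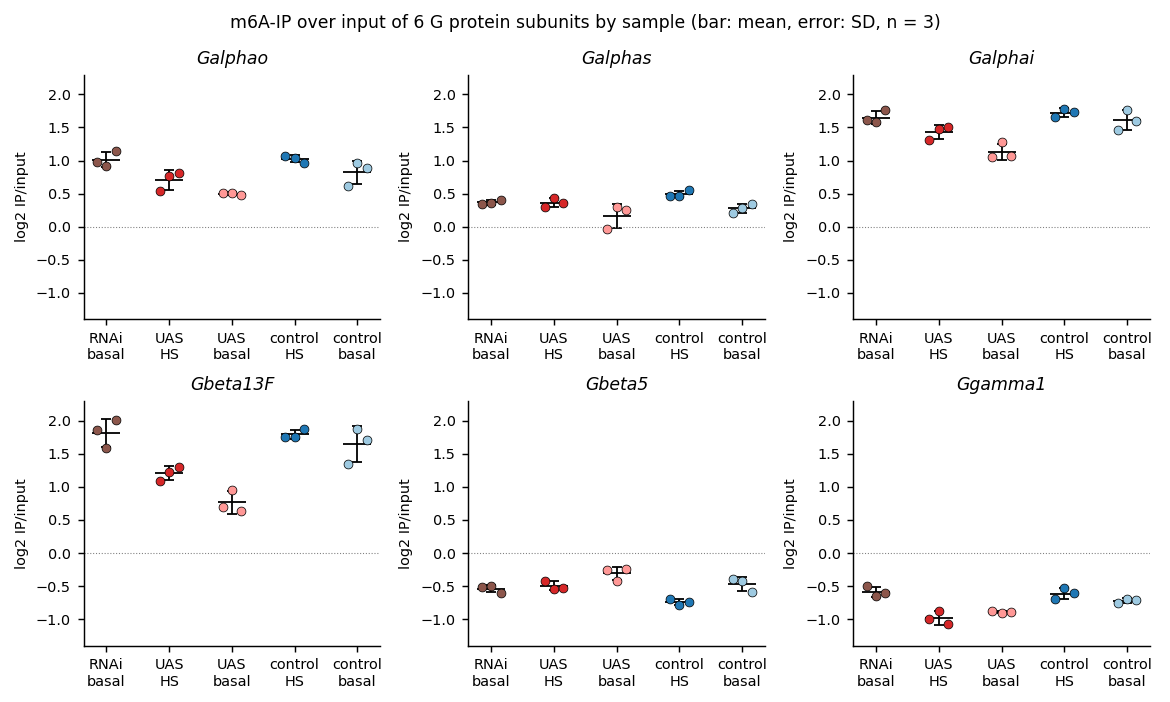
The log2 IP/input (vertical axes, dotted line at 0) of each of the 6 subunits in every sample, by group in the order RNAi basal, UAS HS and basal, control HS and basal. Points are the 3 replicates, long bars the mean and whiskers the SD. The 3 UAS basal points of Gbeta13F lie between 0.64 and 0.96, under all 3 basal control points.

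The comparison of UAS with control heads sets the IP/input of these transcripts at raised dTrmt10A beside that in the KK control. These groups also differ in their transgene, a tagged dTrmt10A clone per the paper against the KK RNAi control line. The parts of transgene, line and dTrmt10A level cannot be told apart. Gbeta13F had the largest difference of the 6. Its log2 IP/input was 0.70, 0.96 and 0.64 in basal UAS heads, against 1.35, 1.88 and 1.71 in basal control heads. After HS it was 1.09, 1.23 and 1.30 in UAS heads, against 1.75, 1.76 and 1.87 in control heads. The groups did not overlap in either condition, and every UAS sample was lower than every control sample. Absence of overlap is given here and below as a description, since its share over all genes was not computed. Its input level in basal heads was 193 ± 3.99 CPM in UAS and 193 ± 4.05 CPM in control (SD, n = 3 each).

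In the test without a term for the RNA sample, Gbeta13F fell in UAS heads after HS by 0.57 on the log2 scale (SE 0.10, adjusted p = 0.0235, edgeR). Thus 1 of the 6 passed, beside 0.945% of 10476 genes. At an unadjusted p under 0.05 there were 5 of the 6 and 16.6% of all genes, and DESeq2 called 2 of the 6 and 5.56% of the genes to which it gave an adjusted p. That call was lost when any of the control HS replicates or the UAS HS replicate 1 or 2 was left out (adjusted p = 0.144, 0.114 and 0.0735 without control HS replicates 1, 2 and 3, and 0.0744 and 0.0620 without UAS HS replicates 1 and 2), while the change stayed between -0.70 and -0.53. In basal heads, 0 of the 6 and 0% of 10368 genes passed. Gbeta13F was at -0.89 (SE 0.16, adjusted p = 0.0616). At an unadjusted p under 0.05 there were 3 of the 6 and 12.0% of all genes, and DESeq2 called 2 (Gbeta13F and Galphai), beside 4.60% of the genes to which it gave an adjusted p. The basal call of Gbeta13F by edgeR was gained without control basal replicate 1, the lowest of its group (log2 change -1.02, adjusted p = 0.0124).

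The IP and the input of a replicate come from the same RNA, and a term for the RNA sample takes that into account. With it, 3 of the 6 fell in basal UAS heads: Gbeta13F by 0.88 (SE 0.10, adjusted p = 3.58e-05), Galphai by 0.48 (SE 0.09, adjusted p = 0.00148) and Galphao by 0.32 (SE 0.08, adjusted p = 0.0154), and 0 of the 6 rose (edgeR with Benjamini-Hochberg adjustment). Over all genes 7.97% were called in this fit, 6.50% lower and 1.47% higher. After HS, 4 of the 6 fell in UAS heads, against 5.30% of all genes lower, 7.18% higher and 12.5% in either direction. They were Gbeta13F by 0.57 (SE 0.08, adjusted p = 0.000160), Ggamma1 by 0.36 (SE 0.08, adjusted p = 0.00432), Galphao by 0.31 (SE 0.08, adjusted p = 0.0171) and Galphai by 0.27 (SE 0.09, adjusted p = 0.0363). In the fit without that term the median over the 6 was -0.25 in basal heads and -0.29 after HS, beside 0.01 and 0.05 over all genes tested. A scaling by DESeq2 size factors moved the split of the genes called after HS without the RNA sample term: 11 were higher and 110 lower, against 25 higher and 74 lower with TMM.

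**Figure D3:**
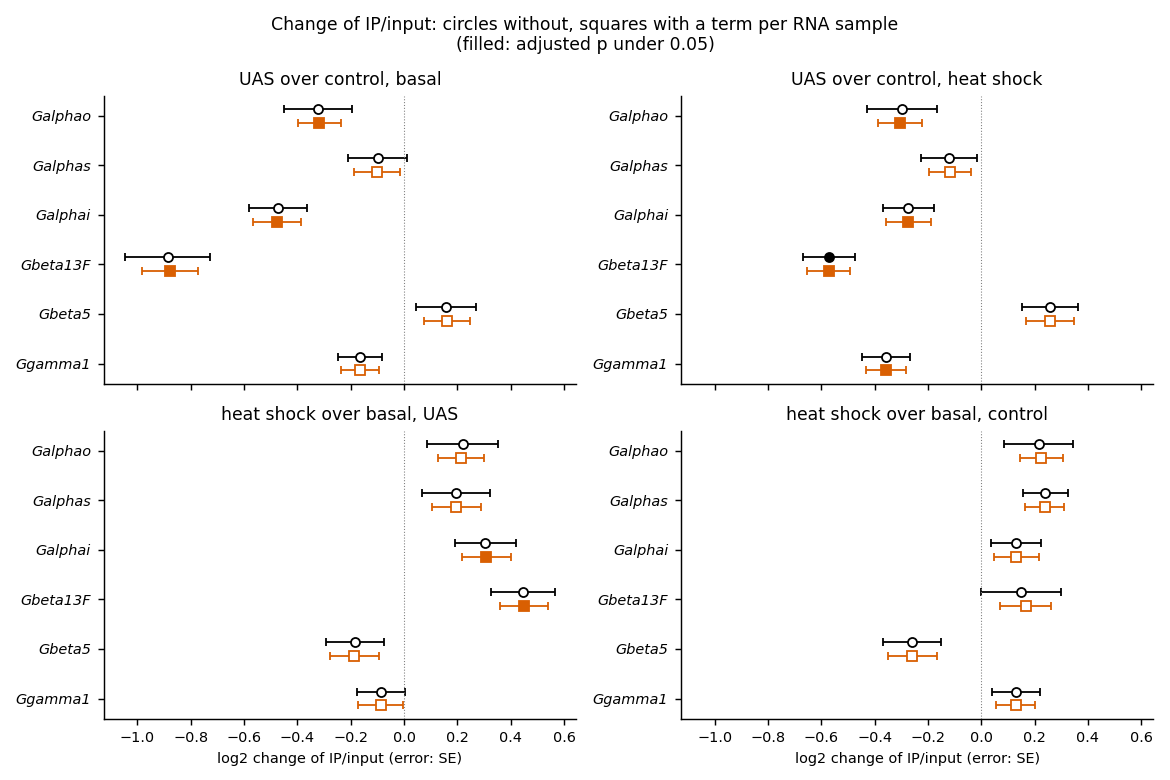
Log2 change of IP/input (horizontal axes, whiskers are the SE) of the 6 subunits in 4 comparisons: UAS over control in basal and HS heads (top), HS over basal in UAS and control heads (bottom). Circles are from the test without, squares from the test with a term per RNA sample, and filled symbols passed the adjusted p of 0.05. Filled squares number 3 in basal and 4 in HS heads for UAS over control, all left of 0.

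Galphai, an alpha subunit of the inhibitory class, followed Gbeta13F. Its log2 IP/input was 1.06, 1.28 and 1.06 in basal UAS heads, against 1.47, 1.76 and 1.60 in basal control heads. After HS it was 1.31, 1.48 and 1.51 in UAS heads, against 1.65, 1.78 and 1.73 in control heads. All UAS samples were below all control samples in each condition. Galphao, the alpha subunit most associated with neurons, had 0.51, 0.51 and 0.48 in basal UAS heads, against 0.62, 0.96 and 0.89 in basal control heads. After HS, Galphao had 0.54, 0.77 and 0.81 in UAS heads, against 1.07, 1.04 and 0.96 in control heads. Here too the groups did not overlap, although control basal replicate 1 lay close to the UAS samples.

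Galphas, the stimulatory alpha subunit, did not pass either test in either condition. Its log2 IP/input was 0.17 ± 0.18 in UAS and 0.28 ± 0.07 in control basal heads, with overlapping samples, and 0.36 ± 0.07 in UAS and 0.50 ± 0.05 in control heads after HS, where they did not overlap (SD, n = 3 each). Ggamma1 was more depleted from the IP in UAS heads. Its log2 IP/input was -1.001, -0.88 and -1.07 in UAS HS heads, against -0.70, -0.53 and -0.60 in control HS heads. In basal heads it was -0.87, -0.91 and -0.89 with UAS, against -0.76, -0.69 and -0.71 in control heads. The groups did not overlap in either condition, but the basal difference was not called (log2 change -0.17, SE 0.07, adjusted p = 0.177 with the RNA sample term, edgeR).

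Gbeta5 lay on the other side in both conditions without passing a test. Its log2 IP/input was -0.31 ± 0.10 in UAS and -0.46 ± 0.10 in control basal heads. After HS it was -0.50 ± 0.07 in UAS and -0.74 ± 0.05 in control heads (SD, n = 3 each), where the samples did not overlap (log2 change 0.26, SE 0.09, adjusted p = 0.0643 with the RNA sample term, edgeR). Without any scaling beyond the library total, the median of all genes shifted by 0.14 in basal heads, and the basal log2 change of Galphas turned to 0.03. Relative to that median, Gbeta13F was at -0.90, Galphai at -0.49, Galphao at -0.33 and Galphas at -0.11.

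Knockdown of dTrmt10A did not move any of the 6 past the threshold in IP/input. In RNAi heads the log2 IP/input of Gbeta13F was 1.86, 1.59 and 2.00, against 1.35, 1.88 and 1.71 in basal control heads, and the groups overlapped. Those of Ggamma1 did not overlap, with -0.50, -0.65 and -0.61 in RNAi heads, against -0.76, -0.69 and -0.71 in control heads. The groups of the other members overlapped, and the share of all genes without overlap was not computed. The changes ran from -0.10 (Gbeta5) to 0.16 (Galphao), and 0 of the 6 had an unadjusted p under 0.05 by edgeR, beside 2.94% of all genes. Of all genes 0% were called without and 0.0290% with the RNA sample term, and DESeq2 called 0 of the 6 and 0% of all genes. The RNAi and UAS comparisons share the basal control samples.

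Heat shock raised the IP/input of Gbeta13F and Galphai in UAS heads. The log2 IP/input of Gbeta13F was 1.09, 1.23 and 1.30 in UAS HS heads, against 0.70, 0.96 and 0.64 in UAS basal heads, and that of Galphai was 1.31, 1.48 and 1.51 in UAS HS heads, against 1.06, 1.28 and 1.06 in UAS basal heads. Every HS sample was above every basal sample for both genes. With the RNA sample term, Gbeta13F rose by 0.45 (SE 0.09, adjusted p = 0.000959) and Galphai by 0.31 (SE 0.09, adjusted p = 0.0179), so that 2 of the 6 were higher and 0 lower (edgeR with Benjamini-Hochberg adjustment), beside 12.5% of all genes higher, 6.10% lower and 18.6% in either direction. Without that term 0 of the 6 and 0.0378% of all genes passed, with 2 of the 6 and 17.7% of all genes at an unadjusted p under 0.05. DESeq2 called 1, Gbeta13F, beside 4.14% of the genes to which it gave an adjusted p. Scaling by library totals alone shifted the median of all genes by -0.23 and called 5 genes higher and 558 lower without the RNA sample term, against 2 higher and 2 lower with TMM. On that scale Gbeta13F was at 0.18 and Galphai at 0.04, or at 0.42 and 0.28 relative to the median.

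In control heads the heat difference in IP/input was not called for any of the 6 in either fit, beside 0% of all genes without and 1.72% with the RNA sample term. At an unadjusted p under 0.05, edgeR had 2 of the 6 and 8.36% of all genes without the term, and 3 of the 6 and 18.3% of all genes with it. DESeq2 called 0 of the 6 and 0.237% of the genes to which it gave an adjusted p. The samples of Galphas did not overlap, with 0.46, 0.47 and 0.56 in control HS heads, against 0.20, 0.29 and 0.34 in control basal heads, nor did those of Gbeta5, with -0.70, -0.79 and -0.74 in control HS heads, against -0.39, -0.42 and -0.58 in control basal heads. Galphao was apart by a small margin, with 1.07, 1.04 and 0.96 in control HS heads, against 0.62, 0.96 and 0.89 in control basal heads. A difference in the heat response between UAS and control heads, tested as an interaction, was not called for any of the 6 in IP/input by edgeR with or without the RNA sample term, or by DESeq2 (0% of 10753 genes in each). At an unadjusted p under 0.05, edgeR had 0 of the 6 and 2.79% of all genes without the term, and 1 of the 6, Gbeta13F, and 7.05% of all genes with it. For Gbeta13F the interaction was 0.31 without the term (SE 0.20, adjusted p = 1) and 0.30 with it (SE 0.14, unadjusted p = 0.0476, adjusted p = 0.701, edgeR). The heat effect in UAS heads is therefore not shown to differ from that in control heads. The 2 heat comparisons and the 2 genotype comparisons share samples with each other.

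In order of mean log2 IP/input, the groups ran control HS, RNAi basal, control basal, UAS HS and UAS basal for Galphao and Galphai, and RNAi basal, control HS, control basal, UAS HS and UAS basal for Gbeta13F. Neighbours in that order overlapped except UAS HS and UAS basal for all 3 genes, and control basal and UAS HS for Gbeta13F. Ggamma1 ran RNAi basal, control HS, control basal, UAS basal and UAS HS, and only control basal and UAS basal were apart. For Gbeta5 the order was UAS basal, control basal, UAS HS, RNAi basal and control HS, with only RNAi basal and control HS apart. Galphas ran control HS, RNAi basal, UAS HS, control basal and UAS basal, and only control HS stood apart from its neighbour.

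The level of the transcripts in input changed with heat. Both beta subunits fell and the gamma subunit rose, in either genotype, relative to the other genes. Gbeta13F had 169, 166 and 173 CPM in UAS HS heads, against 191, 191 and 198 CPM in UAS basal heads. In control heads it had 160, 158 and 155 CPM after HS, against 190, 198 and 192 CPM in basal heads. The HS samples were below all basal samples of their genotype. Gbeta5 had 55.7, 65.8 and 58.5 CPM in UAS HS heads, against 77.8, 83.6 and 77.8 CPM in UAS basal heads. In control heads Gbeta5 had 64.9, 67.1 and 64.1 CPM after HS, against 82.7, 73.3 and 81.2 CPM in basal heads. Again no HS sample reached a basal one.

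Ggamma1 had 982, 938 and 956 CPM in UAS HS heads, against 839, 826 and 842 CPM in UAS basal heads. In control heads it had 932, 936 and 954 CPM after HS, against 817, 834 and 796 CPM in basal heads. All HS samples were above all basal samples. The log2 change in control heads was -0.31 for Gbeta13F (SE 0.05, adjusted p = 0.000920), -0.29 for Gbeta5 (SE 0.06, adjusted p = 0.00652) and 0.19 for Ggamma1 (SE 0.05, adjusted p = 0.0151; edgeR quasi-likelihood test with Benjamini-Hochberg adjustment). Thus 3 of the 6 were called, 1 higher and 2 lower, beside 42.4% of all genes, 19.3% higher and 23.1% lower, a share close to the background. Galphao (-0.12), Galphas (-0.02) and Galphai (0.05) were not called in control heads.

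In UAS heads 5 of the 6 were called, 3 higher and 2 lower, beside 40.7% of all genes, 18.7% higher and 22.0% lower. Gbeta5 fell by 0.41 (SE 0.08, adjusted p = 0.00316) and Gbeta13F by 0.19 (SE 0.06, adjusted p = 0.0290), while Ggamma1 rose by 0.20 (SE 0.06, adjusted p = 0.0219), Galphai by 0.23 (SE 0.07, adjusted p = 0.0229) and Galphao by 0.21 (SE 0.07, adjusted p = 0.0347; edgeR with Benjamini-Hochberg adjustment). Galphai had 63.1, 59.8 and 62.3 CPM in UAS HS heads, against 50.9, 52.0 and 55.2 CPM in UAS basal heads. Galphao had 260, 265 and 289 CPM in UAS HS heads, against 225, 246 and 235 CPM in UAS basal heads. Neither gene overlapped between HS and basal. Galphas was not called, with 116 ± 7.52 CPM in UAS HS and 115 ± 6.56 CPM in UAS basal heads (SD, n = 3 each; log2 change 0.02, adjusted p = 0.877, edgeR).

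These heat directions are relative to the bulk of the genes. When input was scaled by library totals alone, the median of all genes shifted by -0.36 in control and -0.37 in UAS heads, and 479 genes were called higher and 6179 lower in control heads, against 1976 higher and 2361 lower with TMM. In UAS heads, 488 were higher and 6084 lower, against 1938 higher and 2278 lower with TMM. On that scale all 6 subunits were negative, Ggamma1 at -0.16 in control and -0.17 in UAS heads and Galphai and Galphao at -0.14 and -0.16 in UAS heads. Relative to the shifted median the values were 0.19 and 0.20 for Ggamma1, 0.23 for Galphai and 0.21 for Galphao, and -0.31 and -0.29 for Gbeta13F and Gbeta5 in control heads.

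Of the heat calls, that of Gbeta5 held in both genotypes, and that of Gbeta13F in control heads, whichever replicate was left out. Ggamma1 in control heads was lost without control basal replicate 3 (log2 change 0.16, adjusted p = 0.0631). In UAS heads, the calls of the other 4 were each lost without 2 to 4 of the 6 replicates. Ggamma1 was at 0.19 and 0.18 (adjusted p = 0.0691 and 0.0541) without UAS basal replicate 2 and UAS HS replicate 1, and Galphai at 0.19, 0.21 and 0.21 (adjusted p = 0.0670, 0.0647 and 0.0519) without UAS basal replicates 1 and 2 and UAS HS replicate 1. Galphao was at 0.17, 0.21, 0.22 and 0.16 (adjusted p = 0.0954, 0.0843, 0.0688 and 0.115) without UAS basal replicates 1 and 3 and UAS HS replicates 2 and 3. Gbeta13F was at -0.20, -0.16, -0.19 and -0.17 (adjusted p = 0.0580, 0.104, 0.0627 and 0.0915) without UAS basal replicates 2 and 3 and UAS HS replicates 1 and 2.

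Markers of cell types moved with heat as well. Of all genes, 18.7% were called higher and 22.0% lower in UAS heads, and 19.3% and 23.1% in control heads. In UAS heads 4 of 4 neuron markers (elav, nSyb, Syt1 and brp) rose, and their summed level was 3422 to 3535 CPM after HS and 2703 to 2772 CPM in basal heads. In control heads 2 of 4 rose, and the summed level was 3098 to 3258 CPM after HS and 2781 to 2862 CPM in basal heads. All 3 muscle markers rose in both genotypes, with a summed level of 6411 to 7199 CPM after HS and 4515 to 5529 CPM in basal UAS heads, and of 4972 to 6492 and 4041 to 4913 CPM in control heads. Of 4 photoreceptor markers, 2 rose in UAS and 3 in control heads. Glial markers were mixed, with 2 higher and 1 lower of 4 in UAS and 1 higher and 1 lower in control heads, and of the 3 fat body markers 0 were called in UAS heads by edgeR, and 1 rose and 1 fell in control heads. Between UAS and control basal heads the fat body marker to was lower in UAS (log2 change -2.15, adjusted p = 0.0121, edgeR), beside 2.81% of all genes called. No other marker was called there. The summed fat body level was 3117 to 4494 CPM in UAS and 1529 to 3221 CPM in control basal heads. The part of cell composition in the heat or genotype differences of the subunits was not tested.

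**Figure D4:**
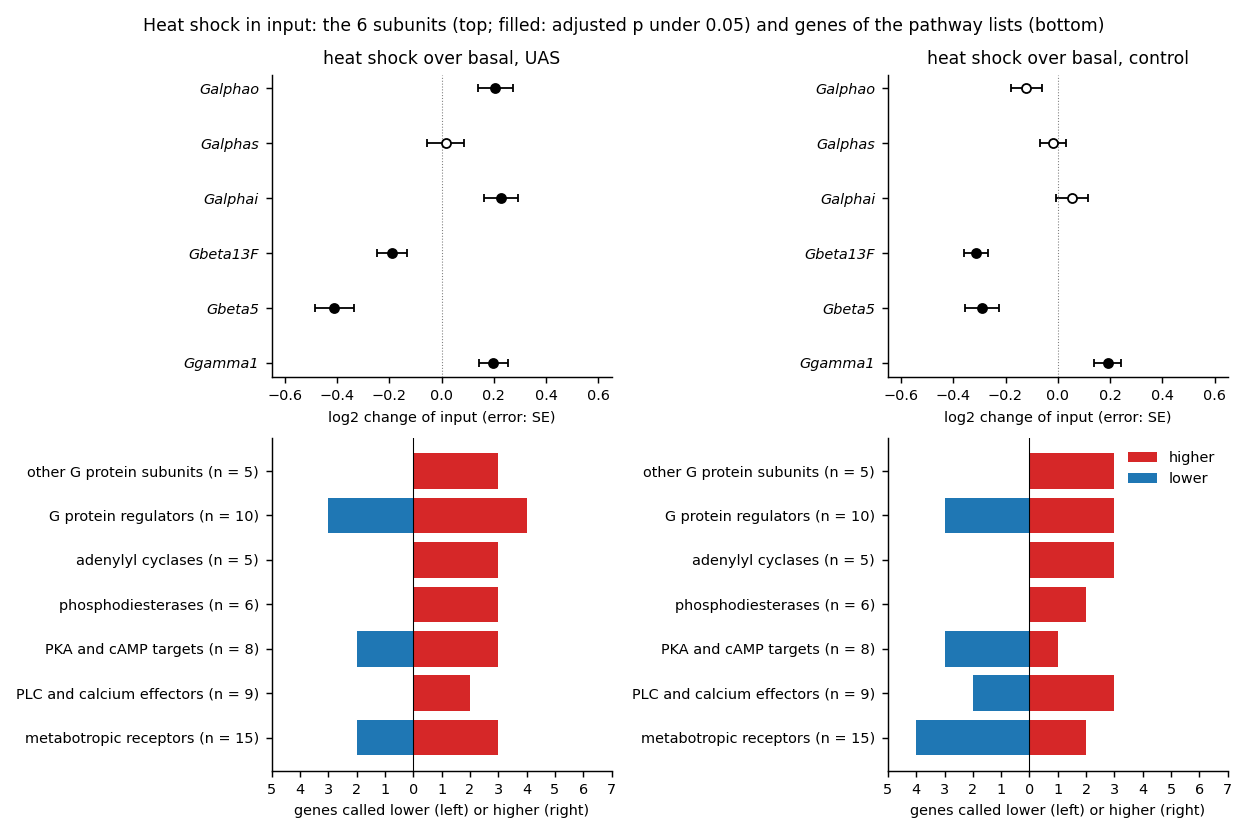
Top: log2 change of input with heat shock (horizontal axes, whiskers are the SE) of the 6 subunits in UAS and control heads, filled where the adjusted p was under 0.05. Bottom: number of genes called lower (left of 0) or higher (right of 0) in each pathway list, n being the genes tested. Gbeta13F and Gbeta5 are left of 0 and Ggamma1 right of it in both genotypes.

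Genotype alone left the input level of the 6 below the threshold. In basal RNAi heads 0 of the 6 were called, beside 0.714% of all genes, with 0 of the 6 and 9.95% of all genes at an unadjusted p under 0.05 by edgeR. DESeq2 called 0 of the 6 and 1.82% of all genes, and the changes lay between -0.10 (Galphai) and 0.06 (Gbeta13F). In basal UAS heads 0 were called, beside 2.81% of all genes, and DESeq2 called 0 of the 6 and 4.72% of all genes. At an unadjusted p under 0.05, edgeR had 1 of the 6 and 16.0% of all genes. That member was Galphao, with 225, 246 and 235 CPM in UAS heads, against 261, 280 and 251 CPM in control heads (log2 change -0.17, adjusted p = 0.242, edgeR), where no samples overlapped. After HS, 0 of the 6 were called between UAS and control heads by edgeR or DESeq2, beside 6.53% and 8.34% of all genes, with 1 of the 6 and 24.4% of all genes at an unadjusted p under 0.05 by edgeR. Inputs with the same replicate number deviated together in this comparison, and with a term for that number edgeR called 11.6% of all genes and again 0 of the 6. In that fit 3 of the 6 and 28.5% of all genes were at an unadjusted p under 0.05: Galphai (adjusted p = 0.0796), Galphao (adjusted p = 0.123) and Gbeta5 (adjusted p = 0.168, edgeR with Benjamini-Hochberg adjustment). Of all genes called after HS without that term, 329 were higher and 343 lower with TMM, and 240 were higher and 454 lower when scaled by library totals.

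The samples of Galphao were lower in UAS than in control basal heads and higher in UAS HS heads (260, 265 and 289 CPM) than in control HS heads (243, 235 and 259 CPM), with no overlap in either. Neither difference was called (adjusted p = 0.242 in basal heads and 0.233 after HS, edgeR). The interaction of heat with genotype was 0.31 for Galphao (SE 0.09, unadjusted p = 0.00400, adjusted p = 0.149 by edgeR). At an unadjusted p under 0.05, edgeR had 1 of the 6 and 1534 of 10544 genes. DESeq2 gave 0.33 with an adjusted p of 0.0174, so that 1 of the 6 was called by DESeq2, beside 5.24% of the genes to which it gave an adjusted p, and 0 by edgeR, beside 0.0379% of all genes. Galphai was also higher in UAS HS heads (63.1, 59.8 and 62.3 CPM) than in control HS heads (57.6, 53.2 and 53.0 CPM), with no overlap and a log2 change of 0.17 (SE 0.06, adjusted p = 0.134, edgeR).

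The groups overlapped with their neighbours in order of mean input for Galphao and Galphas throughout. For Galphai only UAS HS, the highest, was apart from the next group, control HS. For Ggamma1 the 2 HS groups overlapped and stood apart from the 3 basal groups. For Gbeta5 the 3 basal groups overlapped and stood apart from the 2 HS groups. The order for Gbeta13F was RNAi basal, control basal, UAS basal, UAS HS and control HS, and its 2 HS groups did not overlap each other.

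The partners of these subunits were followed with lists of 60 genes, of which 58 were tested. With heat, 21 (36.2%) were higher and 7 (12.1%) lower in UAS heads, beside 18.7% and 22.0% of all genes. In control heads 17 (29.3%) were higher and 12 (20.7%) lower, beside 19.3% and 23.1% of all genes, so that the share of lower genes there was near the background. The median log2 change over the lists was 0.15 in UAS and 0.08 in control heads, while the median of all genes was close to 0 in each. Among the regulators, pins, whose protein binds Galphai at the cell cortex, fell by 0.75 in UAS and 0.94 in control heads. ric8a, a chaperone and exchange factor of alpha subunits, fell by 0.48 and 0.63. RSG7, an RGS protein of the R7 class and so a partner of Gbeta5, fell by 0.29 and 0.51. Gprk2, a kinase of receptors, rose by 0.79 and 0.65, in the same order of genotypes (adjusted p of these 8 changes from 2.64e-05 to 0.0103, edgeR). Axn rose by 0.42 and 0.35 and RapGAP1 by 0.38 and 0.18 in that order, and loco rose by 0.29 in UAS heads. Of the 10 regulators, 4 were called higher and 3 lower in UAS heads, and 3 higher and 3 lower in control heads.

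Among the effectors the adenylyl cyclases Ac76E and Ac78C rose by 0.51 and 0.45 in UAS heads and by 0.41 and 0.34 in control heads, and 3 of 5 cyclases were higher and 0 lower in each genotype. Of 6 phosphodiesterases, 3 were higher and 0 lower in UAS heads, and 2 higher and 0 lower in control heads. Pde6 rose by 0.39 in UAS and 0.17 in control heads, Pde11 by 0.25 and 0.21, and Pde9 by 0.22 in UAS heads. Of 8 genes of the PKA list tested, 3 rose and 2 fell in UAS heads, and 1 rose and 3 fell in control heads. Pka-R1, a regulatory subunit of the cAMP-dependent kinase, fell by 0.27 in UAS and by 0.28 in control heads. Pka-C1, its main catalytic subunit, fell by 0.17 and 0.43. CrebA, a transcription factor of secretory genes, rose by 0.73 in UAS heads, and Epac rose there by 0.34. Pka-C3 rose by 0.25 in UAS and 0.19 in control heads, and Pka-R2 fell by 0.26 in control heads. Of the 9 genes of the phospholipase C and calcium list, 2 rose and 0 fell in UAS heads, and 3 rose and 2 fell in control heads. Itpr, the calcium channel opened downstream of phospholipase C, rose by 0.57 in UAS and 0.30 in control heads, and the phospholipase Plc21C by 0.35 and 0.28. In control heads sl, a phospholipase C of the gamma class, fell by 0.43, the largest change of the list there, Pkc98E, a protein kinase C, fell by 0.20, and Irk3, an inwardly rectifying potassium channel, rose by 0.30. Among the 15 receptors tested, 3 rose and 2 fell in UAS heads, and 2 rose and 4 fell in control heads. AdoR, the adenosine receptor, rose by 0.92 in UAS and 0.53 in control heads, while smo, the transducer of Hedgehog, fell by 1.01 and 1.17. In the same order of genotypes, fz2 rose by 0.43 and 0.41, and mAChR-B fell by 0.33 and 0.19. Between UAS and control heads after HS, CrebA (0.40, adjusted p = 0.0349) and Pka-C1 (0.27, adjusted p = 0.0252, edgeR) were higher, 2 of 58, and with a term for the replicate number 3 were higher and 1 lower, no larger a share than the 6.53% and 11.6% of all genes. In the basal genotype comparisons 0 of 58 were called in input by edgeR.

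In IP/input, with the RNA sample term, 20 of the 58 pathway genes fell and 0 rose in basal UAS heads, beside 6.50% of all genes lower and 1.47% higher. They included dnc, the cAMP phosphodiesterase (-0.57, adjusted p = 0.000938), Pka-R2 (-0.56, adjusted p = 0.000273), CrebA (-0.76, adjusted p = 0.000586) and Pka-C1 (-0.42, adjusted p = 0.00143, edgeR with Benjamini-Hochberg adjustment). The median over the list in the test without that term was -0.14, beside 0.01 over all genes, and 0 of 58 were then called by edgeR. After HS, 9 (15.5%) fell and 5 (8.6%) rose in UAS heads with the term, beside 5.30% and 7.18% of all genes. Without it 3 of 58 fell, beside 0.945% of all genes called in either direction: Galphaq (-0.94, adjusted p = 0.00598), Pkc98E (-0.46, adjusted p = 0.0356) and Ggamma30A (-0.43, adjusted p = 0.0421). With heat in UAS heads, 27 (46.6%) rose and 4 (6.9%) fell with the term, beside 12.5% and 6.10% of all genes, and 0 were called by edgeR without it. The shares that rose after HS in UAS over control heads and that fell with heat in UAS heads were near the background. All 8 tested genes of the PKA list were among the 27.

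The subunits of the visual G protein and the remaining alpha subunits set the 6 in context. Ggamma30A, the gamma subunit of photoreceptors, had a log2 IP/input of 0.32 ± 0.10 in UAS and 0.88 ± 0.20 in control basal heads, and Galphaq, the visual alpha subunit, had -0.98 ± 0.22 in UAS and -0.51 ± 0.27 in control basal heads. Gbeta76C, the visual beta subunit, was at -0.83 ± 0.10 in UAS and -1.03 ± 0.20 in control basal heads (SD, n = 3 each). Of the other alpha subunits, cta had 1.00 ± 0.10 in UAS and 1.30 ± 0.09 in control basal heads at 26.0 and 26.4 CPM of input. Galphaf was near the low end of detection, with 0.999 CPM in UAS and 1.45 CPM in control basal input, and rose with heat by 1.29 in UAS (adjusted p = 0.00165) and 0.77 in control heads (adjusted p = 0.0337, edgeR).

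The genes whose pattern over the 15 RNA samples was most like that of a member were taken by Pearson correlation among 8992 genes with at least 10 counts in every library. For log2 IP/input they were Cam (r = 0.990) and para (0.990) for Gbeta13F, CG42514 (0.975) and shep (0.975) for Galphai, CG5059 (0.986) and CG7220 (0.978) for Galphao, Dscam1 (0.905) and Toll-6 (0.905) for Galphas, PheRS-m (0.918) and Scox (0.909) for Gbeta5, and kcc (0.965) and PIP4K (0.949) for Ggamma1. For log2 CPM of input they were vimar (0.972) and Clbn (0.972) for Gbeta13F, TBCC (0.966) and CG3402 (0.965) for Gbeta5, CG34232 (0.983) and Hsc70Cb (0.982) for Ggamma1, rho-4 (0.927) and sgl (0.922) for Galphai, CG2924 (0.871) and mub (0.866) for Galphao, and CG31248 (0.787) and asRNA:CR43866 (0.784) for Galphas. These values describe the same 15 libraries, which share their scaling and fall into 5 groups.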

How the data were processed

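Per the paper's methods and the labels, the authors trimmed reads with Trim Galore, aligned them to dm6 with STAR 2.7.3a and counted properly paired reads on exons per gene; how strand and duplicates were treated is not given in the sources used here. The deposited values are raw counts, not normalized, for 17562 genes (1461 at 0 in every library). Labels and methods differ on the antibody (Synaptic Systems for every replicate in the labels), which was not modelled. Members and lists were chosen with earlier results of these data known. Named were the 6 members, some genes of the lists, and, for each readout, the 2 genes most like each member. The list genes named were mostly called ones, but not always those with the largest change.

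Counts were filtered (filterByExpr, minimum count 10, total 15), then scaled (TMM) and compared by edgeR 4.0.16 in R 4.3.3 (quasi-likelihood F-test, Benjamini-Hochberg adjusted p under 0.05) on the libraries compared. A change of IP/input is the interaction of assay with group. CPM had no prior count, while log2 CPM and log2 IP/input used a prior count of 2. DESeq2 1.42.0, other scalings and filters, the blocked fit and leaving out each replicate were the alternatives. The labels tie IP and input of a number to the same RNA, and their deviations correlated by 0.163 to 0.396 in every sample, so blocked values are given. Inputs of different groups with the same number correlated by -0.138 to 0.243 and were over 0.1 in all pairs only between UAS and control after HS. Fits were checked on simulated counts. Annotation, words and figures used Python 3.11.15, pandas 2.3.3 and matplotlib 3.10.9. Replicates are separate pools of heads, so p-values measure the spread between pools. The floors cover counting error only.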

Additional observations from a re-analysis of the deposited data

How the results depend on the processing

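The counts of called members moved as follows. For input, library totals alone gave 6 for heat in control heads, no filter gave 3 for heat in UAS heads, 1 fit over all libraries gave 1 for UAS against control after HS, and DESeq2 gave 1 for the interaction. Leaving out a replicate gave 2 to 4 for heat in UAS heads. For IP/input, UAS against control in basal heads gave 2 with DESeq2, 1 without a filter, 3 with the replicate block, 2 in 1 fit over all libraries, and 0 to 1 without a replicate. After HS it gave 2 with DESeq2, with a minimum of 10 counts in every library and in 1 fit over all libraries, 4 with the block, and 0 to 2 without a replicate. Heat in UAS heads gave 1 with DESeq2 and 2 with the block. The block, which here is the RNA sample for IP/input and the replicate number for input, changed no other call of a member.

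Of 1008 changes of a member recomputed under an alternative, 909 kept direction and side of the threshold. Those that turned were, when scaled by library totals: in input, Galphai (-0.022), Gbeta5 (-0.031) and Ggamma1 (-0.0076) for UAS against control in basal heads, Galphai (-0.30) and Ggamma1 (-0.16) for heat in control heads, Galphao (-0.16), Galphas (-0.35), Galphai (-0.14) and Ggamma1 (-0.17) for heat in UAS heads, and Ggamma1 (-0.017) for UAS against control after HS. In IP/input they were Galphai (-0.029) for RNAi, Galphas (0.028) for UAS in basal heads, Galphai (-0.014) and Ggamma1 (-0.015) for heat in control heads, Galphao (-0.046) and Galphas (-0.069) for heat in UAS heads, and Galphao (-0.12) and Gbeta5 (-0.035) for the interaction. Without a filter, Galphas turned to -0.0021 for heat in UAS input and Galphao to -0.025 for the interaction in IP/input. Ggamma1 turned to 0.00998 with DESeq2 size factors and 0.00976 with DESeq2 itself for the interaction in input, and Galphao to -0.0107 and -0.0106 for that in IP/input. Leaving out a replicate turned values near 0. In input, Galphao ran from -0.018 to 0.061 and Gbeta5 from -0.032 to 0.051 for RNAi. For UAS in basal heads, Galphai ran from -0.017 to 0.047, Gbeta13F from -0.020 to 0.017 and Gbeta5 from -0.039 to 0.048. Galphas ran from -0.034 to 0.057 for heat in UAS heads and from -0.035 to 0.057 for the interaction, and Ggamma1 from -0.011 to 0.034 for UAS after HS and from -0.027 to 0.016 for the interaction. In IP/input, Galphai ran from -0.031 to 0.11 for RNAi, Galphas from -0.20 to 0.0011 for UAS in basal heads, and, for the interaction, Galphao from -0.056 to 0.11 and Galphas from -0.14 to 0.035. Of these turned values, 4 passed the threshold, all for heat in input under library totals: Galphai and Ggamma1 in control heads, and Galphas and Ggamma1 in UAS heads. The cause was not tested. With 3 replicates a group and log2 IP/input relative within scaled libraries, a shift of m6A shared by all transcripts cannot be seen.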
